A study of Mus musculus with 4 samples.

Results

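The AP-1 and BATF factors form 3 small families of genes, and their RNA was measured here in T cells that had been activated while NF-κB signalling was inhibited. The genes were taken by symbol from a fixed list of 9, namely the FOS family genes Fos, Fosb, Fosl1 and Fosl2, the JUN family genes Jun, Junb and Jund, and the BATF family genes Batf and Batf3. Each symbol matched 1 gene among the 49671 genes of the files. No measured value served as a criterion, but earlier results of these data were known when genes were chosen. The cells were CD3+ T cells enriched on columns from the spleens of 4 female F1 mus x cast mice, 1 library per mouse, whose mothers were C57BL/6 carrying a heterozygous Xist deletion and whose fathers were of the castaneus subspecies. All 4 cultures received plate-bound anti-CD3 at 1 μg/ml and soluble anti-CD28 at 10 μg/ml for 48 hours together with 2.5 μM IMD-0354, an inhibitor of the kinase IKKβ that normally frees NF-κB to enter the nucleus. They form 1 group, and no resting cells and no activated cells without the inhibitor were analysed here, so neither the effect of activation nor that of the inhibitor on these genes was tested. The age of the mice is not stated in the labels.

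AP-1 is a dimer of basic leucine zipper (bZIP) proteins that binds a short palindromic DNA site. FOS proteins cannot pair with each other and need a JUN partner, whereas JUN proteins can also pair among themselves. In T cells, antigen receptor and costimulatory signals reach AP-1 through MAP kinases, and AP-1 binds beside NFAT at many cytokine genes. BATF and BATF3 are short bZIP proteins that pair with JUN proteins and bind beside IRF4 or IRF8 at composite sites.

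Allelic reads, those assigned by the authors to the C57BL/6 or the Castaneus genome, numbered 30539711 to 34992012 per library. The Castaneus share of autosomal allelic reads was 49.5% to 49.7%. Between 13.5% and 84.2% of the autosomal genes with 20 to 39 allelic reads in a library were read from 1 allele only, the most in replicate 2. The summed RPKM (reads scaled by the length of the gene model and by the library's total) of 14 T cell markers ran from 805.5 to 899 per library, with 14 of 14 averaging 1 RPKM or more, and both Cd4 and Cd8a were present. The sum over 9 myeloid markers ran from 38.6 to 166 RPKM with 5 of 9 averaging as much, and was highest in replicate 2, with Lyz2 and S100a8 leading. The sum over 7 B cell markers ran from 33.3 to 46.4 RPKM with 4 of 7 at that level, and was highest in replicate 1. Dendritic cell markers summed to 12.5 to 14.8 RPKM, of which Zbtb46 and Flt3 made up nearly all, NK cell markers to 3.51 to 4.55, erythroid markers to 1.37 to 8.30 and platelet markers to 2.61 to 2.96. In such bulk libraries fewer cells of a type and less RNA per cell cannot be told apart.

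JUN family RNA made up most of the AP-1 and BATF RNA, with Junb far ahead. RPKM is per length of the gene model, so an order between genes depends on the models used. On this scale the order of mean levels was Junb, Jun, Batf, Fosl2, Jund, Fos, Batf3, Fosl1 and Fosb. The libraries of neighbouring genes in this order did not overlap, except that Jund overlapped Fos and Batf3 overlapped Fosl1, and Batf and Fosl2 were separated only narrowly. Jund exceeded Fos in 3 of 4 replicates, and Batf3 exceeded Fosl1 in 4 of 4. Junb ranked 216 from the top of the 16751 genes averaging 0.1 RPKM or more, Jun ranked 693, Batf 1445 and Fosl2 2288, while Fosb ranked 12453.

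**Figure D1:**
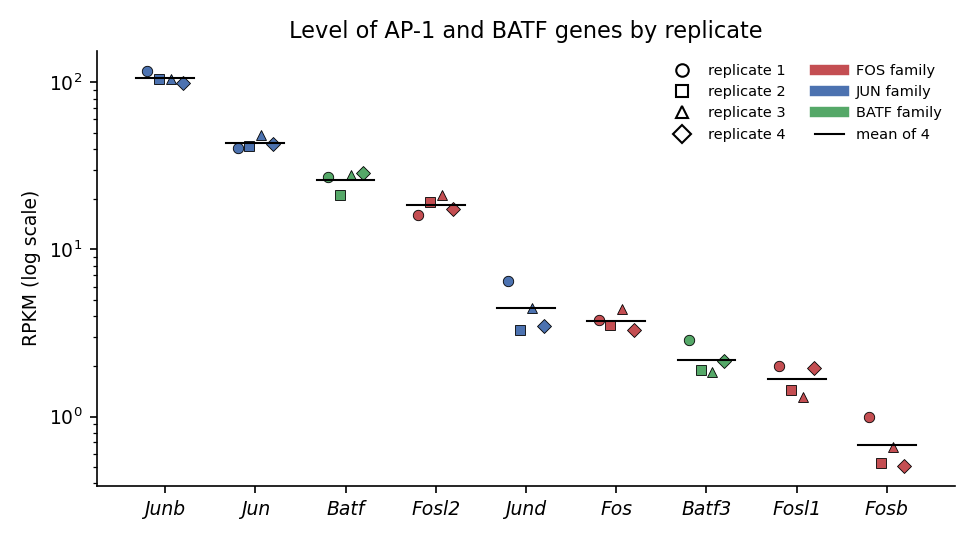
Level of each of the 9 genes in RPKM on a log axis, 1 symbol per replicate, coloured by family, with the mean of 4 as a line, ordered by mean. Junb lies between 99.0 and 118 RPKM and Fosb between 0.507 and 1.00 RPKM.

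Junb, which encodes a JUN protein with roles in T helper cell differentiation, had 118, 105, 105 and 99.0 RPKM in replicates 1 to 4. The mean was 107 ± 7.996 RPKM (SD, n = 4, as for all values after ± below). Jun, which encodes c-Jun, the main target of JNK kinases among these factors, had 40.5, 41.5, 48.3 and 42.8 RPKM, with a mean of 43.3 ± 3.51. Every Junb library lay above every Jun library, and the ratio of the means was 2.46. The GENCODE M21 model of Junb spans 4235 bases, of which 2301 are exonic, whereas RefSeq gives the gene a span of 1840. The Junb level and this ratio therefore depend on the model used. Jund, which encodes a JUN protein that is broadly expressed in resting cells of many tissues, had 6.51, 3.29, 4.46 and 3.49 RPKM, with a mean of 4.44 ± 1.47. Replicate 1 was the highest for Jund and replicate 2 the lowest, and its coefficient of variation of 33.2% compares with a median of 12.2% over 2737 genes whose mean lay within a factor of 1.5 of its own. The Jund level refers to a gene model shorter than the gene. The GENCODE M21 model spans 1668 bases on 1 exon (ENSMUSG00000071076, chr8:70698949-70700616, mm10), whereas RefSeq places the gene at chr8:70697739-70700616, a span of 2878 bases with the same end.

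Among the FOS family Fosl2 carried most of the RNA. Fosl2, which encodes FRA-2, had 16.01, 19.3, 21.2 and 17.5 RPKM, with a mean of 18.5 ± 2.23, and replicate 3 was the highest. Fos, which encodes c-Fos, the classical immediate early factor that is induced and lost again soon after stimulation, had 3.795, 3.51, 4.38 and 3.28 RPKM, with a mean of 3.74 ± 0.477. All Fosl2 libraries lay above all Fos libraries. Fosl1, which encodes FRA-1, had 2.00, 1.45, 1.30 and 1.94 RPKM, with a mean of 1.67 ± 0.348, so that replicates 1 and 4 were higher than replicates 2 and 3. Fosb, also an immediate early gene, had 1.00, 0.524, 0.659 and 0.507 RPKM, with a mean of 0.672 ± 0.229, and replicate 1 was the highest. Fosl2 gave 75.1% ± 3.40 of the summed FOS family RPKM, Fos 15.2% ± 1.26, Fosl1 6.93% ± 1.95 and Fosb 2.77% ± 1.08.

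Batf was the third most abundant of the 9 genes. Batf, which encodes a factor needed for Th17 and follicular helper T cells, had 27.1, 21.3, 27.8 and 28.5 RPKM, with a mean of 26.2 ± 3.32. Replicate 2 was the lowest, and it was also the library with the highest sum of myeloid markers, whose part in this difference was not tested. Batf3, which encodes a factor best known for the development of cross-presenting dendritic cells, had 2.86, 1.91, 1.84 and 2.16 RPKM, with a mean of 2.19 ± 0.464. Replicate 1 was the highest for Batf3 and the other libraries lay close together. Of the 5 dendritic cell markers, Zbtb46 and Flt3 had means of 10.4 and 3.21 RPKM, while Xcr1, Clec9a and Siglech had 0.0245, 0.00837 and 0.00855. The part of dendritic cells in the Batf3 level was not tested. Batf gave 92.2% ± 1.44 of the summed RPKM of the pair.

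The makeup of the 9 genes was alike in the 4 mice. The summed JUN family level was 165, 149.6, 157 and 145 RPKM in replicates 1 to 4, the summed BATF level 30.003, 23.2, 29.6 and 30.7, and the summed FOS level 22.8, 24.7, 27.5 and 23.2. The JUN family gave 74.4% ± 1.501 of the total, the BATF family 13.7% ± 1.503 and the FOS family 11.9% ± 1.05. Junb alone gave 51.4% ± 2.60 and Jun 20.9% ± 1.67. On the log2(RPKM + 1) scale the JUN sum exceeded the FOS sum by 2.60 ± 0.14 and the BATF sum by 2.41 ± 0.18, each in 4 of 4 replicates. By exact permutation of the signs over replicates (two-sided), p was 0.13 for both, the smallest that 4 replicates allow, and the adjusted p over 3 pairs was 0.19. BATF and FOS sums differed by 0.20 ± 0.23, with BATF higher in 3 of 4 replicates (exact permutation p = 0.25, adjusted p = 0.25), so that this difference was within the spread between replicates.

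**Figure D2:**
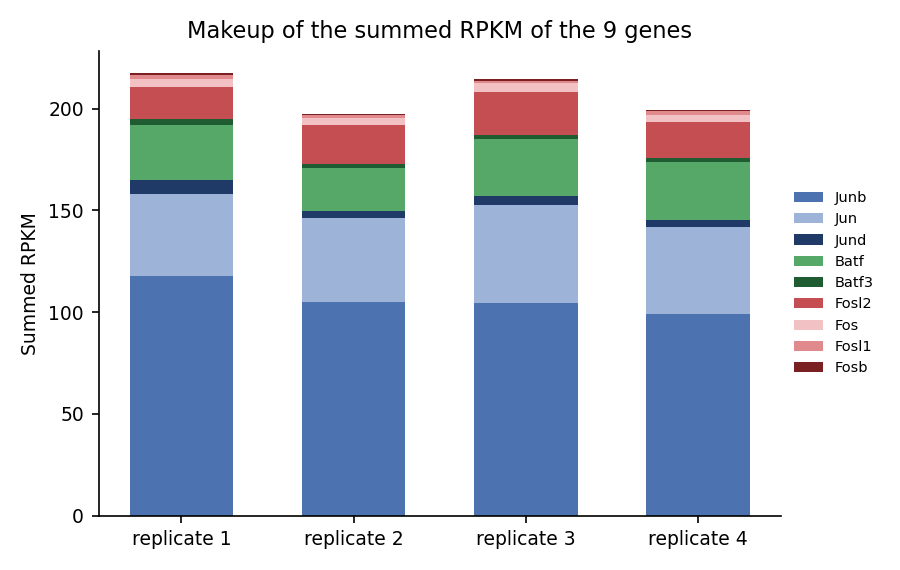
Summed RPKM of the 9 genes in each replicate, stacked by gene, JUN family at the bottom in blue, BATF family in green and FOS family on top in red. Junb gives 51.4% ± 2.60 of the total and the order of the larger blocks is the same in all 4 bars.

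Replicate 1 was the highest library for 5 of the 9 genes, namely Junb, Jund, Fosb, Fosl1 and Batf3, and replicate 2 for 0 of them. Of the 11453 genes at or above 1 RPKM on average, replicate 1 was the highest for 19.7% and replicate 2 for 42.1%. After each library was scaled to its median gene, a setting added once the values were known, replicate 1 was the highest for 5 of the 9 genes and replicate 2 for 0, against 29.1% and 26.1% of all genes. B cell markers were highest in replicate 1 as well, and their part in these levels was not tested.

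The promoter windows were searched for letters that bear on the pathway. RefSeq promoter windows on GRCm38.p6, 250 bases before to 50 after the start, were at hand for 8 of the 9 genes. Both strands were searched for the AP-1 site TGANTCA, the cyclic AMP response element TGACGTCA, the variant TGACATCA, the NF-κB consensus and the CArG box that binds serum response factor. The AP-1 site, the cyclic AMP response element and the CArG box were found in 0 of 8 windows, where 7.81%, 1.79% and 1.63% of all 32851 windows hold one. TGACATCA was found in Jun only, at -45 from the RefSeq start, and 3.62% of all windows hold it. The NF-κB consensus was found in Fos, Fosb and Fosl2, 3 of 8 windows, against 8.46% of all windows, and the matches in Fosl2 overlap each other. Sites farther upstream, and matches to only part of a motif, were not searched. A count of 0 therefore does not show that a gene lacks the element. A match describes letters in a window and shows no binding. The upstream stretches of Jun (chr4:95052223-95052472, minus strand), Fos (chr12:85473640-85473889, plus strand) and Fosb (chr7:19310119-19310295, minus strand) are shown because they hold matches and lie before every annotated start, 5′ to 3′ with the matches in capitals, from RefSeq.
Jun: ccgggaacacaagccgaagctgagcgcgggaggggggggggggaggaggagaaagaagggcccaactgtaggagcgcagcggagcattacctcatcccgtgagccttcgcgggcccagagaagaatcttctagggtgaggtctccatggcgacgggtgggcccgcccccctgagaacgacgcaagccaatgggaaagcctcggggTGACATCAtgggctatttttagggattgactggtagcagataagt
Fos: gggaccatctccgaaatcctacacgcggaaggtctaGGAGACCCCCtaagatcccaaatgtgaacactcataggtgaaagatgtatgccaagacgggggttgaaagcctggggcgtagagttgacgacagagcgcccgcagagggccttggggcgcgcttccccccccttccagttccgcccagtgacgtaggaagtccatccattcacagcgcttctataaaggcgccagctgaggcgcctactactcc
Fosb: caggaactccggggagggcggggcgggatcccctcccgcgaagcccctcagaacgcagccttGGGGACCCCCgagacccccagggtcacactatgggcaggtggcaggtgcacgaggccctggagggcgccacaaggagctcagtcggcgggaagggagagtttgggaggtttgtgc

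Compared with the other bZIP genes, Junb was near the top. Of 44 other genes listed as bZIP genes, 43 were in the files and 31 averaged 1 RPKM or more. Cebpz was listed by its symbol, although its protein is not of the bZIP type. It had 20.7 ± 1.07 RPKM and is counted in these totals and in the ranks of Fosl2 and all genes below it. Among the 43 listed genes and the 9 genes together, Junb ranked 2, Jun 6, Batf 12, Fosl2 17, Jund 31, Fos 32, Batf3 36, Fosl1 38 and Fosb 41 of 52. Atf4, a factor of the integrated stress response, stood above Junb with 283 ± 12.0 RPKM. Atf5, a related stress factor, had 102 ± 4.60 RPKM, and its libraries, from 96.4 to 107, overlapped those of Junb. Nfe2l1, which controls proteasome genes, had 79.8 ± 4.27 RPKM and the small MAF gene Mafg 43.5 ± 3.59. Batf2, the remaining BATF gene, had a mean of 0.0243 RPKM.

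**Figure D3:**
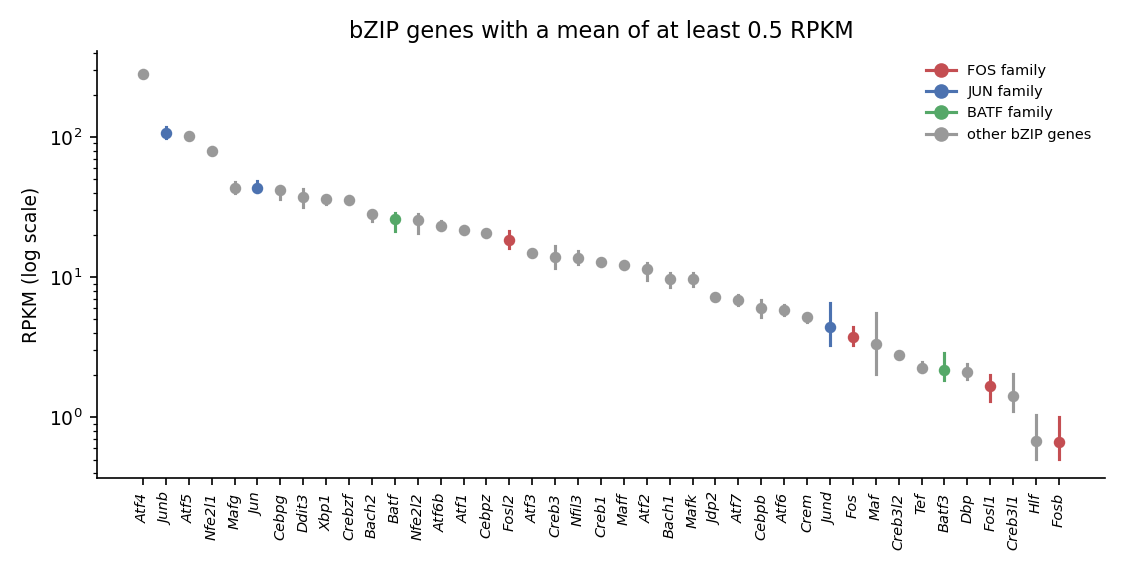
Mean RPKM on a log axis of the 41 genes listed as bZIP genes, Cebpz included, that averaged 0.5 RPKM or more. The lowest and highest library are drawn as a bar, in order of mean. The 9 AP-1 and BATF genes are coloured by family and spread over the whole order, from Junb at 107 to Fosb at 0.672 RPKM.

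By the distance between level profiles, the root mean square difference of log2(RPKM + 0.1) over 4 replicates, the genes closest to Fosl2 among 11452 were Btla (0.05) and Luc7l (0.06). Those closest to Junb were Cct2 (0.09) and Cnbp (0.10), and those closest to Batf were Uqcr10 (0.06) and Med10 (0.10). Only levels in 1 condition enter this measure.

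The hybrid mice also allowed the maternal C57BL/6 and the paternal Castaneus allele of each gene to be read separately. All mice came from the same direction of cross, so the strain of an allele and its parent of origin cannot be told apart. Of the 9 genes, 8 passed the minimum averages of 20 allelic reads and 1 RPKM, and Fosb fell under the RPKM minimum. Against an allelic ratio of 1, 3 of 8 were called at an FDR of 5%, Junb and Jund with Castaneus higher and Jun with C57BL/6 higher, and 5 were undecided (edgeR's quasi-likelihood test with the replicate as a block, Benjamini-Hochberg over 10268 autosomal genes). Over all autosomal genes tested 28.1% were called, 12.4% with Castaneus higher and 15.6% with C57BL/6 higher, so the count of 3 is no result about the 9 genes as a set. The median absolute log2 ratio was 0.24 over the 8 genes and 0.26 over all genes tested.

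Jund was read almost only from the Castaneus allele. It had 352, 62, 304 and 256 Castaneus reads in replicates 1 to 4 and 4, 0, 0 and 0 C57BL/6 reads. The Castaneus share was therefore 98.9% in replicate 1, with an exact Clopper-Pearson 95% interval of 97.1% to 99.7%, and 100% in the others. With 3 reads as the limit, the 0 C57BL/6 reads allow a C57BL/6 share of up to 4.84%, 0.987% and 1.17% in replicates 2, 3 and 4. This limit bounds 1 side only and is tighter than the exact 95% intervals. Those start at a Castaneus share of 94.2%, 98.8% and 98.6% in replicates 2, 3 and 4. In replicate 2, 84.2% of the autosomal genes with 20 to 39 allelic reads were read from 1 allele only. With only 62 allelic reads of Jund there, the 100% and the limit in that library carry less weight. Intervals and limits cover counting error only, since reads can be copies of 1 molecule. All 5 Jund counts above 0 were even, as were 8 of 8 for each of Jun, Fos and Fosb. Of the others, 6 of 8 were even for each of Fosl1, Junb and Batf3, and 3 of 8 for each of Fosl2 and Batf. Over all allele counts above 0, 60.0% to 68.2% per library were even. Whether fragments were counted 2 times was not tested for any gene. With each Jund count halved, a setting added later, the interval in replicate 1 was 96.0% to 99.9% and the limits were 9.68%, 1.97% and 2.34%. The fitted log2 ratio of Castaneus to C57BL/6 was 7.94, with a standard error of 0.72 and an adjusted p of 1.20e-05 in edgeR, higher in 4 of 4 replicates. With so few C57BL/6 reads this size depends on the prior count of the fit, and without replicate 1 it was 10.69. Among all autosomal genes tested, 102 of 10268 (0.993%) had a Castaneus share above 95% in 4 of 4 replicates. Allelic reads were 28.7%, 11.8%, 36.7% and 42.4% of all Jund reads, and what share of the C57BL/6 reads of this gene could be told apart by variants was not tested. The antisense gene Gm11175 shares 877 exonic bases with Jund and had 38 allelic reads in all against 978 for Jund. The strand used in counting was not given in the sources used here.

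Jun and Junb leaned to opposite alleles. Jun (ENSMUSG00000052684, chr4:95049034-95052222, 1 exon) had a Castaneus share of 42.3%, 42.2%, 41.0% and 39.1% in replicates 1 to 4, from 3528 to 4618 allelic reads. C57BL/6 was higher in 4 of 4 replicates, with a mean Castaneus share of 41.2% ± 1.51, a log2 ratio of -0.49 (standard error 0.08) and an adjusted p of 0.000609 in edgeR. An imbalance of at least this size was seen in 29.3% of all genes tested. Junb (ENSMUSG00000052837, chr8:84974484-84978718) had a Castaneus share of 54.6%, 55.4%, 54.1% and 50.8%, from 8318 to 10676 allelic reads. Castaneus was higher in 4 of 4 replicates, with a mean share of 53.7% ± 2.04, a log2 ratio of 0.24 (standard error 0.06) and an adjusted p of 0.0117 in edgeR. An imbalance at least as large was seen in 52.9% of all genes tested. The share ranges of Jun and Junb did not overlap. The edgeR call of Junb was lost in the fit that had no replicate block, where the adjusted p was 0.118. It was also lost when replicate 1 (0.0700) or replicate 3 (0.0537) was left out. Adjusted p-values of Junb ran from 2.02e-06 to 0.118 over 10 alternatives, while Jun was called in all 10. Junos, antisense to Jun, shares 232 exonic bases with it at a mean of 0.320 RPKM, and Prdx2 shares 173 exonic bases with the GENCODE model of Junb on the opposite strand at 7.001 RPKM.

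**Figure D4:**
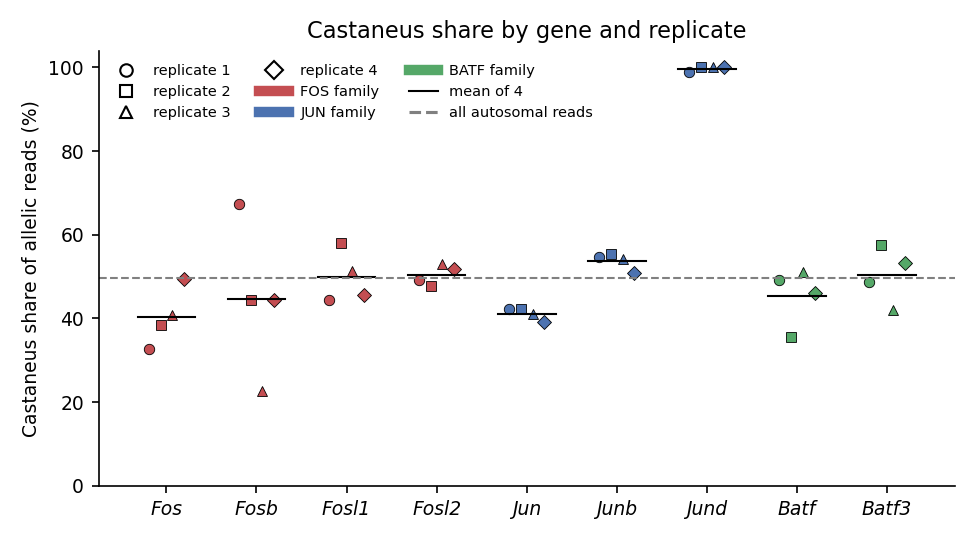
Castaneus share of allelic reads in percent for each of the 9 genes, 1 symbol per replicate, coloured by family, with the mean of 4 as a line and the share over all autosomal reads dashed. Jund lies at 98.9% to 100%, Jun below and Junb above the dashed line in all 4 replicates, and Fosb runs from 22.7% to 67.4%.

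The other genes gave no call. Fosl2 (ENSMUSG00000029135, chr5:32135801-32157842) had a Castaneus share of 49.3%, 47.8%, 53.0% and 51.8% at 10131 to 14049 allelic reads. Summed over the libraries its allelic reads were the most of the 9, though Junb had more in replicate 1. The log2 ratio of Fosl2 was 0.05 (standard error 0.06, adjusted p = 0.566 in edgeR). Replicates 1 and 2 lay below and replicates 3 and 4 above equal shares. Batf (ENSMUSG00000034266, chr12:85686669-85709087) had 49.2%, 35.4%, 51.0% and 46.1%, with a log2 ratio of -0.24 (standard error 0.15, adjusted p = 0.258 in edgeR). Replicate 2 stood below the other libraries for Batf, and without it the log2 ratio was -0.051. For Batf the range of 15.5 percentage points compares with a median of 8.28 over 2311 genes of like read number. Replicate 2 was also the library with the most genes read from 1 allele only. Fos (ENSMUSG00000021250, chr12:85473890-85477273) had 32.7%, 38.3%, 40.9% and 49.5% from 120 to 274 allelic reads. C57BL/6 was higher for Fos in 4 of 4 replicates, but the log2 ratio of -0.55 had a standard error of 0.39 and did not pass (adjusted p = 0.349 in edgeR).

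Fosl1 (ENSMUSG00000024912, chr19:5447547-5455946) had a Castaneus share of 44.4%, 58.1%, 51.4% and 45.5%, with a mean of 49.9% ± 6.30 and an adjusted p of 0.984 in edgeR. Batf3 (ENSMUSG00000026630, chr1:191097847-191108945) had 48.8%, 57.5%, 42.0% and 53.2%, with a mean of 50.4% ± 6.61 and an adjusted p of 0.926 in edgeR. For both genes the replicates fell on either side of equal shares, and at 172 to 504 allelic reads per library a small imbalance was not detectable. Fosb (ENSMUSG00000003545, chr7:19302696-19310051) had 67.4%, 44.4%, 22.7% and 44.4% from 88 to 184 allelic reads, and without the RPKM minimum its log2 ratio was -0.30 (standard error 0.64, adjusted p = 0.799 in edgeR). Its replicates ranged over 44.7 percentage points, against a median of 28.7 over 652 genes of like read number. Fosl1 shares 1163 exonic bases with Ccdc85b on the opposite strand, a gene with 0 allelic reads at a mean of 9.45 RPKM. How reads in the overlap were counted was not tested.

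**Figure D5:**
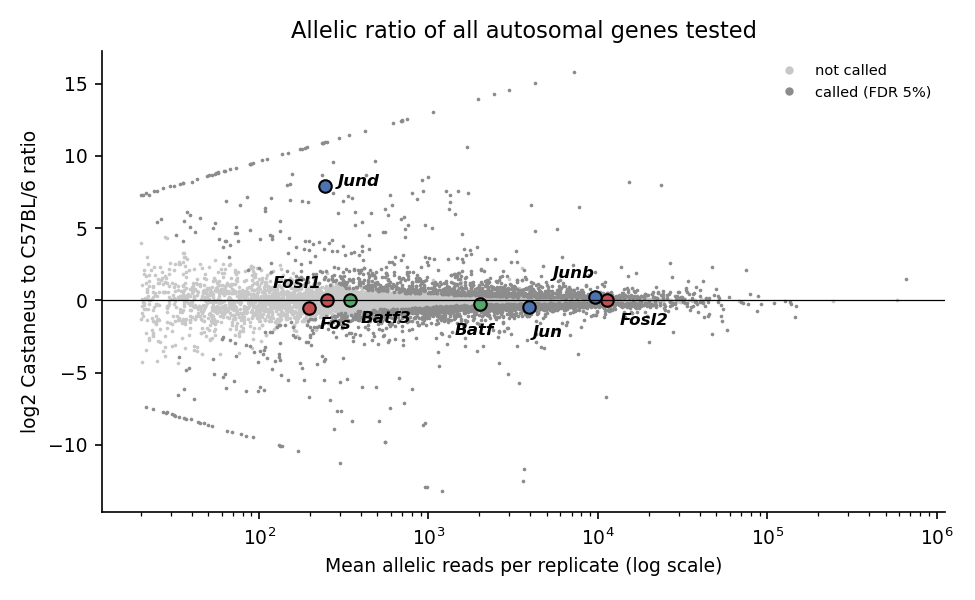
Log2 ratio of Castaneus to C57BL/6 for 10268 autosomal genes against their mean allelic reads per replicate on a log axis, called genes in dark grey, with the 8 tested AP-1 and BATF genes coloured by family. The slanting lines of points are genes with 0 reads from 1 allele, Jund stands at 7.94, and the other 7 genes lie between -0.55 and 0.24.

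The allelic share of the reads differed widely between the 9 genes. The number of reads behind an RPKM could be recovered, since RPKM times exonic length was a whole multiple of 1 step for 90.6% to 90.8% of the values under 200 reads per library, within 0.02 of a read. For 7 of the 9 genes it was whole in 4 of 4 libraries, and for Batf and Fosl1 it was not, so that their shares are approximate. Allelic reads made up 92.1% of all reads for Batf3, 69.4% for Fosl1, 59.8% for Fosl2, 51.1% for Batf, 36.7% for Junb, 30.6% for Jund, 26.6% for Jun, 25.9% for Fosb and 21.03% for Fos. The median over all autosomal genes tested was 50.5%. Junb had 23014 to 31016 reads in all per library and Jund 524 to 1242, so the level of Jund rests on far fewer reads. Fosb, the lowest in RPKM, had 312 to 714 reads, and Fosl1 had about 281 to 464. The Fosb model counts 6243 of its 7356 bases as exonic, and that of Fosl1 2033 of 8400. The order of Fosb and Fosl1, and the place of Fosb under the RPKM minimum, therefore depend on model length.

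Upstream and partner genes were described from lists drawn up around AP-1, and whether each gene acts on AP-1 in these cells was not tested. Of 18 listed kinase genes, taken by symbol from the MAP kinase gene series and the RSK family, 15 were tested for allelic ratio. Of these, 1 was called with Castaneus higher, 4 with C57BL/6 higher and 10 were undecided, where 28.1% of all autosomal genes tested were called. Mapk3 had 21.1 ± 1.24 RPKM, and the RSK genes Rps6ka1 and the X-linked Rps6ka3 20.4 ± 0.977 and 20.3 ± 1.58 RPKM. Mapk3 had a Castaneus share of 56.0% ± 3.30, whereas Mapk8, which encodes JNK1, had 42.4% ± 3.04, Map3k1 41.5% ± 1.03, Map3k14 43.3% ± 1.43 and Rps6ka1 42.5% ± 2.94. Of 6 factors of the serum response element 5 were tested, with Mkl2 called for Castaneus at 55.8% ± 4.62, Mkl1 for C57BL/6 at a Castaneus share of 44.8% ± 1.46 and 3 undecided, beside 28.1% called over all genes tested. Elk4 led this list with 50.2 ± 3.71 RPKM, followed by Mkl1 with 21.8 ± 1.67, Srf with 12.3 ± 0.885 and Elk3 with 5.96 ± 1.17.

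Of 10 partners on composite sites all 10 were tested, 2 were called for Castaneus, 6 for C57BL/6 and 2 were undecided, against 28.1% called over all autosomal genes tested. That share is not matched for depth, and mean allelic reads on this list ran from 299 to 37249. Whether genes of like depth are called as often was not tested. Irf4, the partner of BATF, was the most abundant with 167 ± 11.6 RPKM, ahead of Ets1 with 55.02 ± 2.84, Nfatc3 with 29.1 ± 1.89 and Stat3 with 28.8 ± 0.415. Nfatc3 was the most uneven of these with a Castaneus share of 8.38% ± 3.70, while Irf4 had 47.4% ± 0.870, Nfatc1 42.9% ± 1.70, Nfatc2 45.1% ± 2.51, Runx1 44.6% ± 3.15, Ets1 55.9% ± 1.25 and Stat3 52.9% ± 1.69. Of the other genes listed as bZIP genes 31 were tested, 4 were called for Castaneus and 7 for C57BL/6. Another 20, with Cebpz among them, were undecided (28.1% called over all genes tested). The median log2 ratio was -0.01 against -0.04 over all genes tested. Bach2, which represses at AP-1 sites and restrains effector differentiation, had a Castaneus share of 54.1% ± 1.93 and Bach1 55.4% ± 1.79. Atf5 had 54.996% ± 1.82 and Crebzf 53.1% ± 1.61, whereas Creb1 had 46.0% ± 1.65, Nfe2l2 44.0% ± 1.96, Cebpg 44.6% ± 1.75 and Xbp1 41.0% ± 2.23.

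Of 5 genes for ubiquitin ligases of AP-1 and their adaptors 0 were called in edgeR, where 28.1% of all genes tested were called. An unadjusted p under 0.05 in edgeR was found for 1 of the 5, and for 3902 of all 10268 genes tested. DESeq2 called 1 of the 5, against 3813 of the 10268. These counts are no result about the list. Ndfip1 had 98.5 ± 9.85 RPKM, Itch 13.01 ± 0.971, Rfwd2 5.23 ± 0.479 and Fbxw7 4.11 ± 0.437. Of 18 T cell genes with known AP-1 or BATF sites 13 were tested, 4 were called for Castaneus, 2 for C57BL/6 and 7 were undecided, beside the same 28.1% over all genes tested. Il2ra, the high-affinity IL-2 receptor chain, had 46.3 ± 4.35 RPKM, Cd69 32.3 ± 2.07, Gzmb 34.3 ± 7.30 and Il17a 37.6 ± 34.5, with a range of 13.1 to 88.7 for Il17a. Plaur had a Castaneus share of 87.8% ± 1.59, Ctla4 71.95% ± 6.77, Gzmb 56.8% ± 2.53 and Il2ra 52.9% ± 2.27, while Il13 had 25.2% ± 0.605 and Il17a 39.8% ± 3.08.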

How the data were processed

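RNA was sequenced from 4 libraries of 1 group. The authors deposited read counts per gene and allele, which are whole numbers with unequal library totals, and RPKM values of both alleles together. STAR 2.7.1a, featureCounts and mm10 are named in the submitters' processing notes. The way reads were given to an allele, and the total used for RPKM, were not given in the sources used here. Gene models came from GENCODE M21, in which 49412 of 49671 gene IDs were found. The deposited RPKM values correspond to library totals that differ by less than a factor of 1.5.

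Allele counts of autosomal genes with a mean of at least 20 allelic reads and 1 RPKM were modelled by quasi-likelihood (glmQLFit, then glmQLFTest) in edgeR 4.0.16 under R 4.3.3, using replicate as a block, since both alleles come from 1 mouse, and autosomal totals as library sizes. Standard errors come from the F statistic. The fit was tested on simulated data. Alternatives were DESeq2 1.42.0, TMM factors, no block, other minimums and leaving out each replicate. Summed family levels used a pseudocount of 1. The genes named beyond the 9 are the 4 of each list with the highest RPKM, called genes with the most allelic reads (up to 4 per direction), and the 2 closest in level to the highest gene of each family. Single marker genes, Batf2, Cebpz and overlapping or neighbouring genes were named after their values were seen. 1 gene that the rule names is not reported here. Genes, lists and tests were chosen with earlier results of these data known. Python 3.11.15, scipy 1.17.1 and matplotlib 3.10.9 were used.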

Additional observations from a re-analysis of the deposited data

Results flagged for a closer look

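The Castaneus share of Jund in replicate 1 was 98.9%, the lowest of its 4 libraries. It met Dixon's criterion for 4 samples, but with the other 3 libraries all at 100% any value below 100% in 1 library meets it. The exact interval of replicate 2, from 94.2% to 100%, holds 98.9%, and the 4 C57BL/6 reads of replicate 1 were the only ones of this gene in the 4 libraries. Levels and Castaneus shares of the 9 genes were searched in this way, 18 sets of 4 values, of which 1 stood apart, where chance gives about 1 in 20.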

How the results depend on the processing

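Jun with C57BL/6 higher and Jund with Castaneus higher were called in edgeR or DESeq2 under all 10 alternatives, with log2 ratios of -0.52 to -0.44 and 7.47 to 10.69. Junb kept its direction but was not called without the replicate block (log2 ratio 0.25) or without replicate 1 or 3, and its log2 ratio was 0.21 to 0.30 when single replicates were left out. Of the 8 genes tested in the main analysis 2 to 3 were called over the alternatives, and of all autosomal genes 1947 to 3813, with 2100 without the replicate block and 1947 to 3075 when a replicate was left out. The log2 ratio of Fosl1, never called, turned to -0.051 without the replicate block and ran from -0.15 to 0.12 when replicates were left out, and that of Batf3, also never called, ran from -0.091 to 0.21. The log2 ratio of Batf ran from -0.35 to -0.051, that of Fosl2 from 0.0039 to 0.10 and that of Fos from -0.73 to -0.39 when replicates were left out. The cause was not tested. With the 1 RPKM minimum or a left-out replicate the JUN, BATF and FOS shares of the summed RPKM ran from 74.01% to 74.9%, 13.1% to 14.3% and 11.55% to 12.3%. The 3 differences between family sums kept their direction with those settings and with a pseudocount of 0.1, and the 6 genes closest in level were the same with a pseudocount of 1. Few allelic reads lie behind the ratios of Fos, Fosb, Fosl1, Jund and Batf3, and the part of depth in their spread was not tested.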

Other observations

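The surroundings of the genes were read for allelic shares after the values of the 9 genes had been seen. Within 100 kb of Jund, 8 other genes were tested, and their mean Castaneus shares ran from 39.3% for Gdf15 to 83.2% for Ifi30, with a median of 67.8%. The 1 gene tested near Jun, Mysm1, had 42.3% beside 41.2% for Jun, the 1 near Fos, Tmed10, had 57.2% beside 40.3% for Fos, and the 1 near Fosl2, Bre, had 41.6% beside 50.5% for Fosl2. The 3 genes near Batf3 had 30.99% to 39.97%, below the 50.4% of Batf3. Near Junb 12 genes ranged from 34.7% for Rnaseh2a to 64.3% for Syce2, and Jdp2, a bZIP gene beside Batf, had 51.2% beside 45.4% for Batf.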
